A study of Rattus norvegicus with 8 samples.

Results

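The microRNAs (miRNAs) of renal cortex were compared between rats with 1 kidney removed and sham-operated rats, both kept on a diet with 0.50% sodium and given no deoxycorticosterone acetate (DOCA). The group UNX was male rats that had undergone nephrectomy and received soybean oil under the skin, 0.1 ml per animal, as vehicle. The group SHAM was male sham-operated rats; whether they also received the oil is not given in the sources used here. Cortex was taken 9 weeks after nephrectomy, whereas the sample descriptions speak of 8 weeks. The cortex of UNX is therefore that of the kidney left in place, with the contralateral kidney missing for the whole period. Each group had 2 arrays. The labels do not state that they came from separate rats, so every p-value below refers to the spread between arrays, which may be technical. The study also had 2 arrays of each of 2 groups with nephrectomy, 1.5% sodium and DOCA at 8 mg/kg. Of these, DOCA-EVs rats were also injected weekly, from week 2, with extracellular vesicles of adipose mesenchymal cells. Both served here for the shared estimate of the spread and for values set beside the main ones. The replicate 2 arrays of both were weakly hybridised: the signal of a control (dmr3) was 3.49 and 3.50 log10, against 3.81 to 3.84 on the other arrays.

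Of the 758 rat miRNAs on the array, 233 (30.7%) were members of the comparison: the scanner software called them detected on both arrays of SHAM, of UNX or of both. The 525 others were not described. Of the 233, 215 were detected on all 4 arrays, 13 entered through SHAM alone and 5 through UNX alone. For the 18 members that entered through 1 group alone, the choice itself bears on the direction, although the software's detection flag did not strictly follow the level. The lowest level among the members was that of miR-9a-5p, at 3.34 and 3.64 log2 in SHAM and 3.77 and 3.44 in UNX. The brightest miRNA left out was miR-1-5p, at 5.43 and 5.48 in SHAM and 4.89 and 4.87 in UNX, which was detected on 1 array of each group.

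A miRNA is a short RNA that guides a silencing complex to messenger RNAs, mainly through the seed, bases 2 to 8 from its 5′ end. After removal of a kidney, the remaining one enlarges and takes over the filtration and transport of the missing one, largely through growth of tubule cells. In kidney epithelium, miR-192 and miR-194 are products of shared transcripts and are enriched in tubules, the miR-200 family maintains the epithelial state by repressing the factors Zeb1 and Zeb2, and miR-30, miR-10 and let-7 are abundant.

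The sequences below are those of the members with the leading values and of their seed relatives, taken from RefSeq (GRCr8), with the seed in capitals. The miR-96, miR-182 and miR-183 hairpins lay within 10 kb of each other on 1 strand of that assembly. The seed of miR-96-5p differed at 1 base from that of miR-182 and at 1 base from that of miR-183-5p.
miR-96-5p: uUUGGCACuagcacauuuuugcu
miR-182: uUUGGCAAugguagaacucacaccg
miR-183-5p: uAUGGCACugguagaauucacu
miR-19a-3p and miR-19b-3p, of the miR-17 cluster, shared their seed and differed at 1 of 23 bases.
miR-19a-3p: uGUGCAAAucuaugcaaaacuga
miR-19b-3p: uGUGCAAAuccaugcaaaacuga
A further 5 members shared 1 seed with each other and are described together below.
miR-15b-5p: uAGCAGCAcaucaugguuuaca
miR-16-5p: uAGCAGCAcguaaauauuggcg
miR-195-5p: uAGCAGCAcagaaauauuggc
miR-322-5p: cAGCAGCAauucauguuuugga
miR-497-5p: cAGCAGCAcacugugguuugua
The let-7 pair below shows how close probes of 1 family are, with 1 difference in 22 bases, and whether their signals are fully separate on the array was not tested.
let-7a-5p: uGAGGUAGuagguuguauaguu
let-7f-5p: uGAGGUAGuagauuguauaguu
The miR-10 pair, and 4 members with values below 0, follow.
miR-10a-5p: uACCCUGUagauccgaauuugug
miR-10b-5p: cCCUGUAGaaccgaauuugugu
miR-494-3p: uGAAACAUacacgggaaaccucu
miR-375-3p: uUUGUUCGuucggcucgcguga
miR-145-5p: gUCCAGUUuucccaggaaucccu
miR-1224: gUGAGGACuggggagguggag
Repeats of short motifs run through the miR-466 sequences, of which 3 are shown.
miR-466b-3p: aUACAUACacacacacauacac
miR-466c-5p: uGUGAUGUguguauguacaug
miR-466d: aUGUGUGUguauguucuuuugu

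The 4 arrays detected 239 and 232 miRNAs in SHAM and 241 and 243 in UNX, and no probe was saturated. Levels are log2 of the signal after each array was scaled by its 75th percentile; that percentile was 421 and 395 in SHAM and 519 and 504 in UNX before scaling. Of the kidney markers, miR-192, miR-194, miR-204, miR-30a, miR-10a, miR-10b and miR-200b were members. None of the 4 arrays had the tubule-enriched miR-215 above background. The muscle miRNA miR-1-3p and the neuronal miR-124-3p were at the floor on all 8 arrays, and the hepatocyte miRNA miR-122-5p was not detected on any of the 4. Other miRNAs of the list for striated muscle, liver, nerve and endocrine cells were present: 5 of 11 were members, among them the muscle miR-206-3p, at 6.02 and 5.78 in SHAM and 5.70 and 5.10 in UNX. The summed signal of that list was 177 and 171 in SHAM and 165 and 137 in UNX, and its part in the results was not tested. The group is also the column of the slide, so position on the slide and nephrectomy cannot be told apart.

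The SHAM arrays resembled each other more closely than the replicates of any other group. Over the 233 members, replicates differed by a median of 0.06 log2 in SHAM and 0.17 in UNX, while the UNX and SHAM means differed by a median of 0.23 regardless of sign. Across repeat spots of the 271 probes well above background on all arrays, 19.9% of probes differed between the SHAM arrays by more than 2 standard errors of the spots, against 59.4% between the UNX arrays. Counting both SHAM arrays as 1 sample, an alternative chosen after seeing the data, left 1 higher and 3 lower miRNAs at an unadjusted p under 0.05, in place of the 2 and 14 given next.

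**Figure D1:**
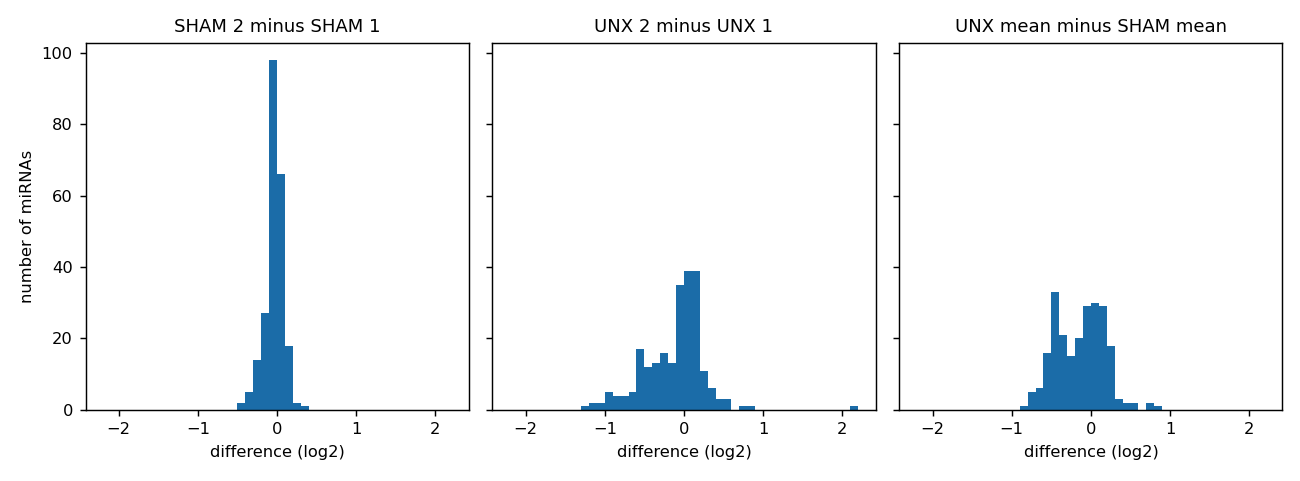
Number of member miRNAs (vertical axis) by difference in log2 level (horizontal axis) between the SHAM arrays, between the UNX arrays and between the group means. The SHAM panel is the narrowest; the point far to the right in the UNX panel is miR-3584-5p, at 5.96 and 8.11 on the UNX arrays.

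No miRNA passed an adjusted p of 0.05 between UNX and SHAM (limma, Benjamini-Hochberg over the 242 miRNAs of the fit, percent called 0%), and the smallest adjusted p was 0.357. At an unadjusted p under 0.05, 2 members were higher in UNX (background 0.826% of the 242) and 14 were lower (background 5.79%). With array weights 3 miRNAs passed with an adjusted p of 0.034 and a value below 0 in UNX, namely miR-494-3p, miR-770-3p and miR-375-3p. With the replicate number as a block, 0 passed and the unadjusted counts became 2 higher and 28 lower. The DOCA and DOCA-EVs pairs, part of the shared spread, differed by centred medians of 0.24 and 0.23 log2 across 271 probes, against 0.05 in SHAM and 0.12 in UNX. With the SHAM and UNX arrays alone 0 passed, the smallest adjusted p was 0.077 (limma), and the unadjusted counts were 21 higher and 38 lower. With the main scaling no member differed by more than 1 log2, 5 lay more than 0.5 above 0 and 28 more than 0.5 below. Other settings gave larger values: 1.24 for miR-19a-3p with quantile normalization and 1.04 for miR-96-5p with the percentile over all probes. With the software's total signal miR-128-3p was at 1.36. The 95% interval of the difference was 0.47 log2 wide on either side at the median, and for 153 of the 233 members it lay within 1 log2 of 0, that is within a 2-fold difference either way.

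The groups did not overlap in 172 of the 233 members (73.8%), against 72.7% of the 242 miRNAs in the fit. In 61 of them both UNX arrays were above both SHAM arrays (background 25.2%) and in 111 both were below (background 47.5%), and 122 of the 172 were above background on all 4 arrays. The difference was above 0 in 87 members (background 36.4%) and below 0 in 146, with a median of -0.10 and quartiles of -0.41 and 0.10. This split followed the scaling. The difference was above 0 in 154 members with the 75th percentile taken over all probes, in 110 with quantile normalization and in 156 with no scaling, where the medians were 0.22, -0.02 and 0.22. The unadjusted calls turned with it, to 7 higher and 0 lower with the percentile over all probes and 7 higher and 4 lower with quantile normalization. Values below are therefore set beside the median of all members, -0.10, but the median varied with level. It was 0.07 in the 58 members of highest level and -0.39 in the 59 dimmest. Of those 58, 31 were higher in UNX without overlap. They included miR-192-5p, miR-200b-3p, miR-429, miR-10a-5p, miR-10b-5p and miR-29b-3p, which are described below.

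**Figure D2:**
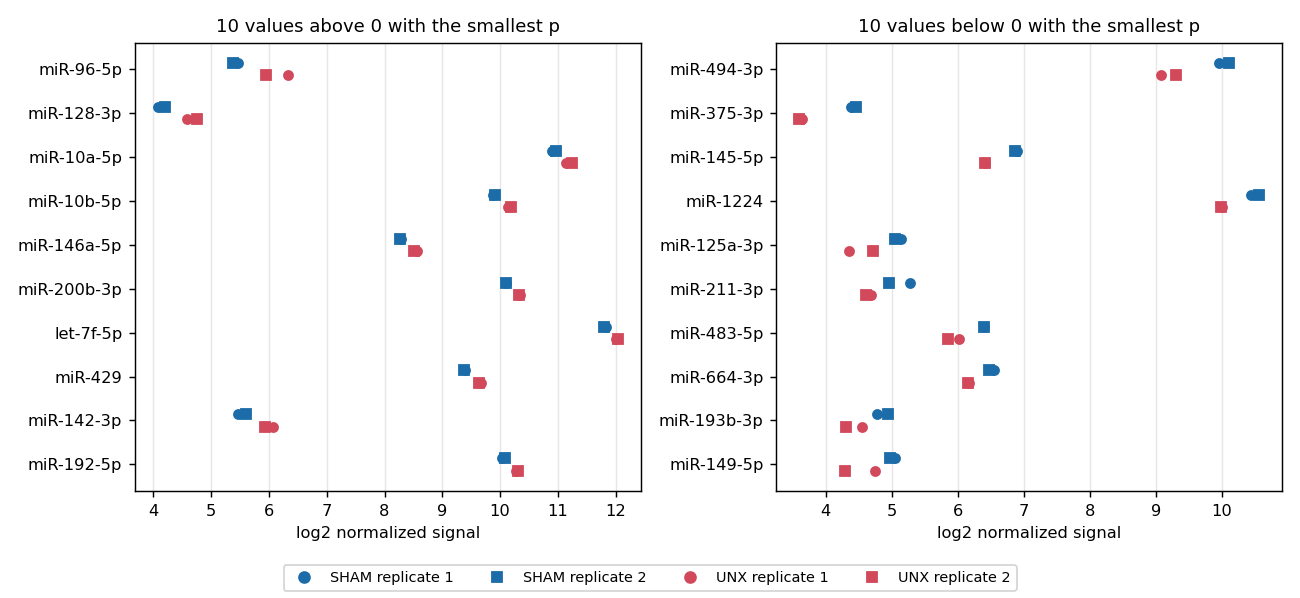
Log2 normalized signal (horizontal axis) of the 10 members in each direction with the smallest unadjusted p among those above background on at least 1 of the 4 arrays; circles are replicate 1 and squares replicate 2, blue SHAM and red UNX. In all 20 the UNX and SHAM arrays do not overlap, which a choice by small p on these same arrays favours. Of all 233 members, 73.8% did not overlap. None of the 20 passed the adjusted threshold.

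Among the members of the kidney tubule list and the miR-200 family, the highest values were those of miR-192-5p and of 2 members of the miR-200 family. miR-192-5p measured 10.03 and 10.08 in SHAM and 10.27 and 10.31 in UNX, a difference of 0.24 ± 0.14 log2 (SE, adjusted p = 0.63, limma). Both UNX arrays lay above both SHAM arrays. Its cluster partner miR-194-5p measured 9.57 and 9.56 in SHAM and 9.54 and 9.72 in UNX, and its groups overlapped. The passenger strand of the same hairpin, miR-192-3p, measured 4.63 and 4.71 in SHAM and 4.38 and 4.58 in UNX, below SHAM on both arrays. As tissue was measured in bulk, a smaller share of a cell type and less of a miRNA per cell cannot be told apart here or below. miR-204-5p measured 5.93 and 6.04 against 5.85 and 6.11, with overlap. Over the kidney tubule list, 5 of 9 miRNAs were members, 3 were above 0 and 2 below, and the median was 0.04. That direction depended on the array pair and the scaling: 1 of 5 was above 0 within replicate 1 and 4 within replicate 2, and all 5 were with quantile normalization. The median was 0.12 without UNX replicate 1, 0.07 without SHAM replicate 1 and -0.02 without UNX replicate 2.

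In the miR-200 family, miR-200b-3p measured 10.10 and 10.11 in SHAM and 10.34 and 10.33 in UNX (0.23 ± 0.12, adjusted p = 0.63, limma). miR-429, transcribed with it, measured 9.38 and 9.38 in SHAM and 9.67 and 9.63 in UNX (0.27 ± 0.15). Replicates of both miRNAs agreed within 0.05 log2 and their groups did not overlap. The third miRNA of that transcript, miR-200a-3p, measured 9.69 and 9.69 against 9.85 and 9.77. The other transcript of the family gave values on either side of 0. miR-141-3p measured 6.39 and 6.35 in SHAM and 6.50 and 6.66 in UNX, whereas miR-200c-3p, not above background in SHAM, measured 4.50 and 4.30 in SHAM and 4.25 and 4.02 in UNX. In all, 4 of the 6 members were above 0, with a median of 0.17, and all 6 were with quantile normalization.

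The miR-30 family, known from podocytes as well as tubule cells, had a median near 0: 10 of 11 were members, 3 were above 0 and 7 below, with a median of -0.02. The median was 0.03 without UNX replicate 1, and 6 were above 0 with quantile normalization. miR-30a-5p measured 11.38 and 11.41 in SHAM and 11.32 and 11.48 in UNX, a difference whose 95% interval ran from -0.42 to 0.42. Of the miR-29 family, which represses collagens and other matrix genes, miR-29b-3p had the largest value, with 11.66 and 11.57 in SHAM and 11.81 and 12.02 in UNX (0.30 ± 0.17, adjusted p = 0.63, limma). miR-29a-3p overlapped between groups, at 12.36 and 12.22 against 12.29 and 12.39. In the family 3 of 4 members were above 0, with a median of 0.10. It was 0.03 with quantile normalization, 0.17 without SHAM replicate 1 and 0.02, with 2 of 4 above 0, without SHAM replicate 2.

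The miR-10 miRNAs lie in the Hox gene clusters, which pattern the body axis and remain expressed in the adult kidney. miR-10a-5p measured 10.89 and 10.96 in SHAM and 11.14 and 11.24 in UNX (0.27 ± 0.12), and miR-10b-5p measured 9.89 and 9.92 in SHAM and 10.14 and 10.18 in UNX (0.26 ± 0.12, both with an adjusted p of 0.63, limma). Both had both UNX arrays above both SHAM arrays, by 0.25 to 0.28 within each replicate number. The miR-196 miRNAs of the same clusters lay at or below 0: miR-196a-5p measured 7.22 and 7.17 against 7.17 and 7.21, and miR-196c-5p 6.52 and 6.48 against 6.29 and 6.13. Of the 6 members of the Hox list 2 were above 0, with a median of -0.04. The median was 0.0049 without UNX replicate 1, and 4 were above 0 with quantile normalization.

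With the main scaling the highest median of the 17 lists was that of the miR-183 cluster, whose 3 miRNAs come from 1 transcript and are best known from sensory cells. miR-96-5p measured 5.46 and 5.37 in SHAM and 6.33 and 5.95 in UNX, 1.65-fold higher in UNX (0.72 ± 0.17 log2, adjusted p = 0.357, limma). Its value stayed above 0 under all scalings, from 0.24 with normexp background correction and quantile normalization to 1.05 with no scaling. miR-183-5p, whose value is the cluster's median, was a member through UNX alone, so the choice of members bears on its direction. It measured 3.66 and 3.99 in SHAM and 4.31 and 4.36 in UNX; it was not above background in SHAM and was on 1 UNX array, so the difference was at least 1.02-fold. miR-182 overlapped, at 5.64 and 5.41 in SHAM and 5.79 and 5.44 in UNX. All 3 members were above 0 under each scaling, with a median of 0.51, against 0.65 within replicate 1 and 0.37 within replicate 2. With normexp and quantile normalization the median was 0.10, below the 0.12 of the miR-200 family. Leaving out UNX replicate 1 or SHAM replicate 2 put 1 of the 3 below 0.

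Among the growth-associated miR-17 cluster and its paralogues, 9 of 11 were members, 6 were above 0 and the median was 0.08. miR-19a-3p, a member through UNX alone, so that the choice of members bears on its direction, had the highest value: 4.04 and 4.04 in SHAM against 4.84 and 4.86 in UNX. It was above background on both UNX arrays and on neither SHAM array, which put it at least 1.46-fold higher in UNX, with a difference of 0.81 ± 0.57 and an adjusted p of 0.63 (limma). The large SE came from the DOCA arrays, at 5.65 and 4.17, and the DOCA-EVs arrays, at 4.02 and 5.32. Fitted on the 4 SHAM and UNX arrays alone, its SE was 0.06 and its adjusted p 0.077, the smallest of that fit together with miR-375-3p. miR-19b-3p measured 8.19 and 8.07 in SHAM and 8.52 and 8.40 in UNX, again without overlap. The cluster partners miR-17-5p, at 7.13 and 7.14 against 7.11 and 7.05, and miR-92a-3p, at 8.17 and 8.27 against 8.14 and 8.12, had values below 0.

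The let-7 family, which restrains growth genes, had all 9 of its miRNAs among the members and all 9 above 0, with 8 higher in UNX without overlap (background 25.2%). The values were small, from 0.06 to 0.21, with a median of 0.14, which was 0.07 within replicate 1, 0.19 within replicate 2 and 0.08 without UNX replicate 2. With quantile normalization, with or without normexp, let-7b-5p and let-7c-5p were below 0, and the median was 0.06 with normexp. let-7f-5p measured 11.84 and 11.79 in SHAM and 12.01 and 12.04 in UNX. Apart from miR-98-5p, the let-7 members were among the 58 brightest members, of which 31 were higher in UNX without overlap. The seed relatives miR-15b-5p, miR-16-5p, miR-195-5p, miR-322-5p and miR-497-5p, which repress cell cycle genes, were picked out after their values were seen. All 5 were above 0 without overlap (background 25.2%), with a median of 0.20, from 0.08 for miR-16-5p to 0.23 for miR-195-5p; miR-16-5p was below 0, at -0.04, with quantile normalization. miR-195-5p measured 7.98 and 7.98 in SHAM and 8.11 and 8.32 in UNX. Their relative miR-15a-5p, with no sequence in the table, measured 6.62 and 6.59 against 6.64 and 6.71. The group's difference was 0.02 at the median within replicate 1 and 0.24 within replicate 2, so it rested mainly on 1 pair of arrays. None of these miRNAs had an unadjusted p under 0.05.

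**Figure D3:**
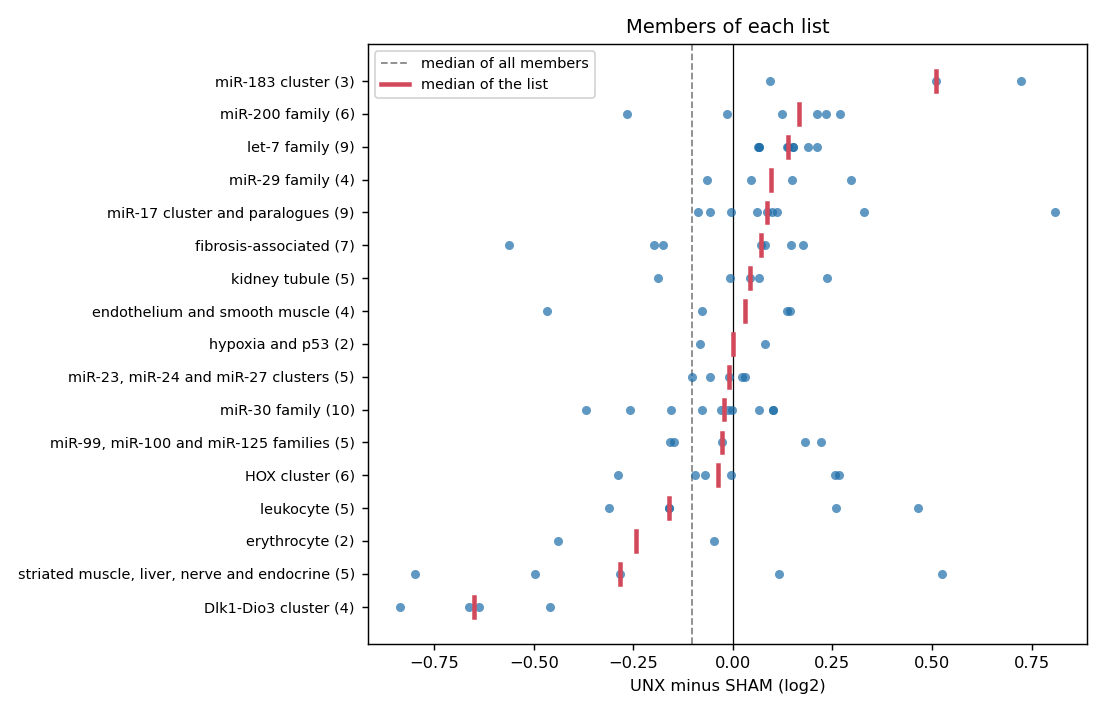
UNX minus SHAM difference in log2 level (horizontal axis) of the members of each of the 17 lists, with the number of members in brackets; dots are miRNAs, red bars list medians and the dashed line the median of all 233 members, -0.10. List medians run from -0.65 (Dlk1-Dio3 cluster) to 0.51 (miR-183 cluster).

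Blood and immune cell miRNAs had values on both sides of 0. miR-142-3p, characteristic of blood cell lineages, measured 5.47 and 5.60 in SHAM and 6.07 and 5.92 in UNX (0.46 ± 0.27, adjusted p = 0.63, limma), without overlap. miR-146a-5p, induced by inflammatory signalling and limiting it, measured 8.29 and 8.26 against 8.55 and 8.51 (0.26 ± 0.12). The lymphocyte miRNA miR-150-5p lay on the other side, at 7.30 and 7.30 in SHAM and 6.99 and 6.99 in UNX, as did miR-155-5p, at 4.04 and 4.08 against 3.84 and 3.96. The myeloid miR-223-3p measured 6.22 and 6.18 against 5.90 and 6.18. Over the leukocyte list 5 of 7 were members, 2 above 0 and 3 below, with a median of -0.16, which was -0.02 without UNX replicate 1 and 0.21 with quantile normalization. The summed signal of the list was 629 on both SHAM arrays and 662 on both UNX arrays, and miR-146a-5p was its brightest member. The red cell miRNA miR-451-5p measured 8.10 and 8.04 in SHAM and 8.25 and 7.79 in UNX; its difference of -0.05 was above 0 with the percentile over all probes and with no scaling.

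Of the vascular miRNAs, miR-145-5p, a marker of smooth muscle cells, had one of the smallest p-values. It measured 6.89 and 6.86 in SHAM and 6.41 and 6.41 in UNX, 1.38-fold lower in UNX (-0.47 ± 0.14 log2, adjusted p = 0.456, limma). The gap between groups was many times the gap within them, which the choice by small p on the same arrays favours. The values under the other scalings ran from -0.43 with the median over detected probes to -0.14 with no scaling. miR-143-3p, processed from the same transcript, measured 9.94 and 9.95 against 9.88 and 9.85. The endothelial miR-126a-3p measured 10.36 and 10.38 against 10.51 and 10.52, and miR-221-3p overlapped. This list of 4 members, 2 above 0 and 2 below, had a median of 0.03, which was -0.05 without UNX replicate 1.

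The miRNAs linked to fibrosis and injury also had values on both sides of 0. miR-21-5p measured 10.91 and 11.001 in SHAM and 11.03 and 11.17 in UNX (0.15 ± 0.34, adjusted p = 0.829, limma), an interval of -0.68 to 0.97. Its passenger strand miR-21-3p measured 5.37 and 5.10 in SHAM and 4.72 and 4.63 in UNX, 1.48-fold lower, or -0.29 log2 with quantile normalization. This strand was above background on 1 SHAM array and no UNX array. Its bound is no more than the measured difference, since both UNX levels exceeded that of the dimmest miRNA above background there. miR-214-3p measured 7.85 and 7.87 against 7.67 and 7.65, and miR-199a-3p, from the same transcript, 8.73 and 8.72 against 8.74 and 8.85. The p53-responsive miR-34a-5p measured 6.85 and 6.89 against 6.91 and 6.98, and the hypoxia-induced miR-210-3p overlapped, at 5.70 and 5.86 against 5.66 and 5.73. Of 7 fibrosis-associated members 4 were above 0 and 3 below, with a median of 0.07. The direction of that median rested on 1 array: it was -0.19 without UNX replicate 2 and -0.18 within replicate 1.

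The largest value below 0 was that of miR-494-3p, from the Dlk1-Dio3 locus, an imprinted region whose miRNAs are made from the maternal chromosome. It measured 9.95 and 10.11 in SHAM and 9.08 and 9.31 in UNX, 1.78-fold lower in UNX (-0.84 ± 0.18 log2, adjusted p = 0.357, limma). The groups were well apart, which the choice by small p on the same arrays favours. The difference was -0.87 within replicate 1 and -0.80 within replicate 2. It kept its sign under all scalings, from -0.51 with no scaling to -0.84 with the main one. Most miRNAs of the locus were not detected: 4 of the 32 listed miRNAs were members and 27 were detected on none of the 4 arrays. All 4 members lay below 0 without overlap (background 47.5%), with a median of -0.65. They were below 0 under each scaling, but the median was -0.29 with quantile normalization and -0.04 with normexp and quantile normalization. Apart from miR-494-3p they were among the 59 dimmest members, of which 43 were lower in UNX without overlap, with a median of -0.39. miR-770-3p measured 4.46 and 4.51 against 3.71 and 3.93, and miR-136-5p 4.56 and 4.54 against 4.29 and 3.54, and both stayed below background throughout. Grouping hairpins by position, with gaps of up to 10 kb, gave 1 run of 7 members at the locus. All 7 were below 0 and 6 were lower without overlap (background 47.5%), with a median of -0.47. The run included miR-134-3p, a member through SHAM alone, so that the choice of members bears on its direction. It also included miR-667-3p, at 6.30 and 6.28 in SHAM and 6.19 and 5.69 in UNX. Of the run, miR-299a-5p, miR-758-5p, miR-329-3p and miR-134-3p were among the 59 dimmest members. As miR-770-3p and miR-136-5p were not in the run, neither count covers the whole locus. Both together also fall short of it, since miR-485-3p, the other strand of a listed hairpin and a member at -0.54, was in neither.

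Several further miRNAs with small p-values lay below SHAM on both UNX arrays. miR-1224, which is spliced out as a short intron without the usual first processing step, measured 10.44 and 10.57 in SHAM and 9.99 and 9.98 in UNX, 1.43-fold lower (-0.51 ± 0.15, adjusted p = 0.456, limma). miR-375-3p, an islet and neuroendocrine miRNA, measured 4.38 and 4.46 in SHAM and 3.64 and 3.60 in UNX (-0.80 ± 0.19); it was above background on 1 SHAM array alone, which made it at least 1.19-fold lower. miR-483-5p, from an intron of Igf2, measured 6.39 and 6.39 in SHAM and 6.02 and 5.85 in UNX. In each the UNX arrays were the lower ones and the groups did not overlap, which the choice by small p on the same arrays favours.

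Among the dimmer members with small p-values were miR-125a-3p, at 5.14 and 5.05 in SHAM and 4.35 and 4.72 in UNX, and miR-211-3p, at 5.27 and 4.97 in SHAM and 4.69 and 4.62 in UNX, both strands of their hairpins other than the one usually retained. miR-664-3p measured 6.54 and 6.47 against 6.17 and 6.15. miR-193b-3p measured 4.79 and 4.94 against 4.55 and 4.31, and miR-149-5p 5.04 and 4.98 against 4.74 and 4.30. The UNX arrays were below the SHAM arrays in all of them, which the choice by small p likewise favours. The neuron-enriched miR-128-3p was the other member above 0 with an unadjusted p under 0.05, at 4.08 and 4.20 in SHAM and 4.58 and 4.75 in UNX (0.52 ± 0.14, adjusted p = 0.456, limma); it was above background on 1 UNX array alone, a difference of at least 1.29-fold.

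The 6 members with miR-466 names, singled out after their values were seen, all lay below SHAM on both UNX arrays (background 47.5%). miR-466b-3p measured 11.66 and 11.61 in SHAM and 11.47 and 10.99 in UNX (-0.41 ± 0.24, adjusted p = 0.63, limma). The 6 values ran from -0.61 to -0.41 with a median of -0.51, which was -0.40 with quantile normalization. They differed most on the replicate 2 arrays, with a median of -0.31 within replicate 1 and -0.69 within replicate 2. Their mature sequences, 3 of which are shown above, consist mostly of alternating short repeats, and how far their probes bind each other's RNA was not tested.

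Across the members the difference followed the signal. In the 58 members of highest level, 38 were above 0 and the median was 0.07; in the next 58 the median was -0.06, in the next 58 it was -0.25, and in the 59 dimmest it was -0.39, with 10 above 0. The pattern held within replicate 1 (0.02, -0.05, -0.15 and -0.23) and within replicate 2 (0.13, -0.05, -0.27 and -0.44), and with quantile normalization the medians were 0.06, -0.05, -0.04 and -0.04. The correlation of difference with level across the 233 members was r = 0.376 (Spearman's rho 0.428), and -0.035 with quantile normalization. The points share the same 4 arrays and are not independent. With no scaling the medians were 0.40, 0.27, 0.06 and -0.08, and r was 0.387. With the percentile over all probes they were 0.40, 0.26, 0.06 and -0.08, and r was 0.387. The size of the medians therefore depended on the scaling, while the fall from bright to dim members stayed under both. Quantile normalization gives all arrays the same distribution, so its values cannot show what the fall came from.

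**Figure D4:**
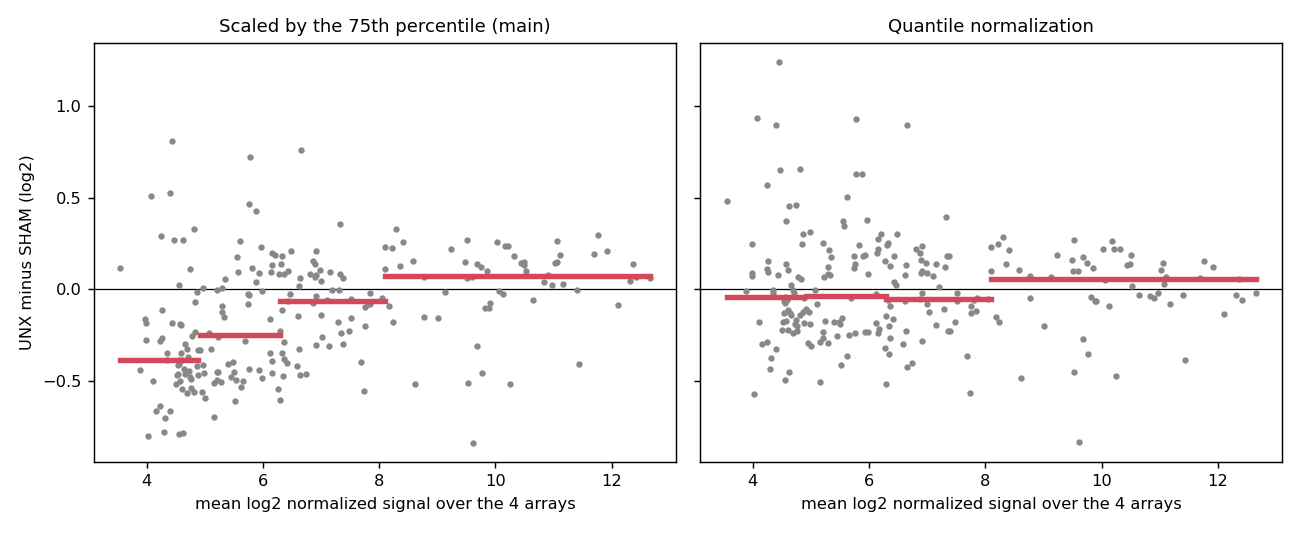
UNX minus SHAM difference in log2 level (vertical axis) against the mean log2 level over the 4 arrays (horizontal axis) for the 233 members, with the main scaling at left and quantile normalization at right. Red bars are medians of 4 groups of members ordered by level; they fall from 0.07 to -0.39 at left and lie between -0.05 and 0.06 at right.

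The difference also went with base composition, a property the choice of members did not use. A mature sequence was at hand for 210 members, and 23 had none in the RefSeq table. In the 15 members with a share of G and C under 35% the median difference was 0.13 and 11 were above 0, and in the 54 between 35% and 45% it was 0.08. It was -0.06 in the 89 between 45% and 55%, and -0.35 in the 52 over 55%, where 2 were above 0, miR-324-5p and miR-3584-5p. With quantile normalization the medians were 0.19, 0.10, -0.02 and -0.13. The correlation across the 210 was r = -0.398 (rho -0.443), and -0.407 and -0.313 within replicates 1 and 2. It was -0.286 with quantile normalization and -0.152 with normexp and quantile normalization. G and C content and level were themselves correlated, with r = -0.332, and the points share arrays. miR-3584-5p had the widest spread of the members, at 6.35 and 6.19 in SHAM and 5.96 and 8.11 in UNX, with 10.67 and 10.71 in DOCA and 10.003 and 7.88 in DOCA-EVs. The sequences printed above span this range. miR-19a-3p and let-7f-5p, with values above 0, had 34.8% and 31.8% G and C. miR-1224, with a value below 0, had 66.7%. Others did not follow the relation: values were also below 0 for miR-494-3p, at 43.5%, miR-466b-3p, at 36.4%, miR-466c-5p, at 38.1%, and miR-466d, at 31.8%.

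**Figure D5:**
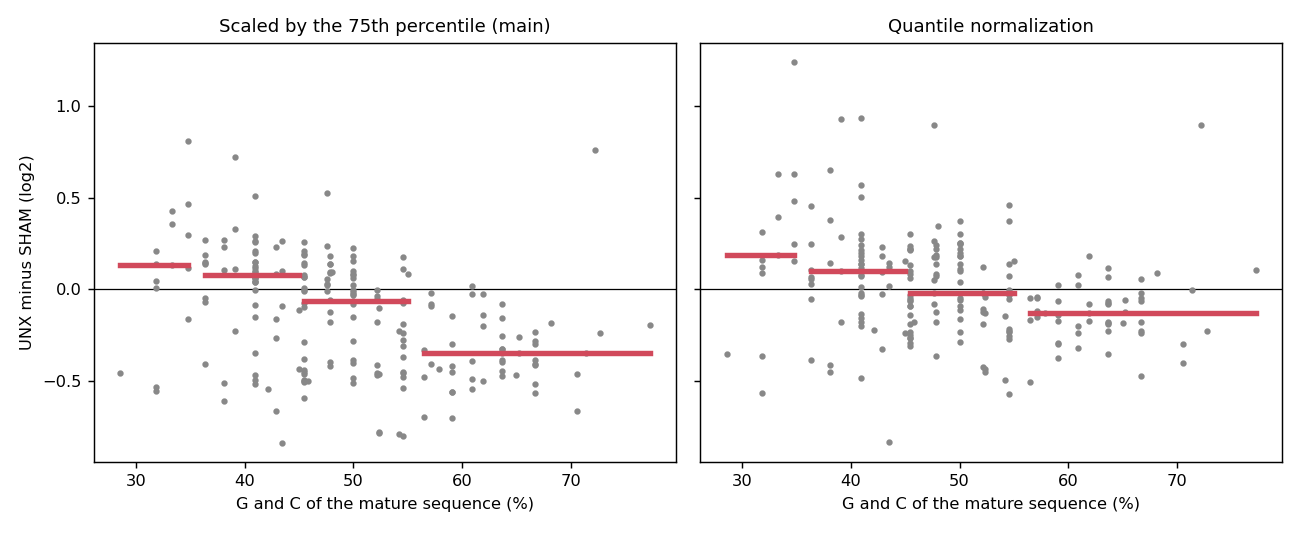
UNX minus SHAM difference in log2 level (vertical axis) against the percentage of G and C in the mature sequence (horizontal axis) for 210 members, with the main scaling at left and quantile normalization at right. Red bars are medians of the 4 composition groups, which go from 0.13 to -0.35 at left and from 0.19 to -0.13 at right.

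Both strands of 27 hairpins were members. In 12 of these hairpins the 5p and 3p strands had differences of opposite sign, and in 20 the brighter strand had the higher difference, with medians of -0.01 for brighter and -0.18 for dimmer strands. Examples were let-7d, at 0.15 for the 5p and -0.40 for the 3p strand, miR-21, at 0.15 and -0.56, and miR-192, at 0.24 and -0.19. Both strands of a hairpin come from 1 precursor, and the relation of difference to level described above applies to these pairs too; its part in them was not tested. The miRNAs numbered 3000 and above, 21 members, had a median of -0.39 with 3 above 0, and a median of -0.17 with quantile normalization.

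The values of the leading members in the other nephrectomised groups are given as a description. They are set beside the same SHAM and UNX arrays by which these miRNAs were picked, so they are not an independent check. miR-96-5p measured 5.95 and 5.71 in DOCA and 5.78 and 5.66 in DOCA-EVs, between SHAM and the higher UNX array. miR-145-5p measured 6.32 and 6.54 in DOCA and 6.33 and 6.52 in DOCA-EVs, below both SHAM arrays on all 4. miR-494-3p measured 9.62 and 9.81 in DOCA and 8.91 and 9.26 in DOCA-EVs, and miR-1224 10.19 and 10.55 and then 9.98 and 9.996. For miR-494-3p all 6 arrays of nephrectomised rats were below both SHAM arrays, while for miR-1224 the higher DOCA array lay within the SHAM range. miR-375-3p was at the floor, 2.36, on both DOCA arrays and at 3.73 and 3.19 in DOCA-EVs. miR-192-5p, above SHAM in UNX, measured 9.52 and 9.77 in DOCA and 9.41 and 9.55 in DOCA-EVs, below SHAM. miR-142-3p measured 7.20 and 6.71 in DOCA and 5.85 and 6.53 in DOCA-EVs, and miR-146a-5p 8.65 and 8.63 and then 8.56 and 8.73, all above SHAM. miR-10a-5p measured 10.72 on both DOCA arrays, below SHAM, and 10.99 and 11.12 in DOCA-EVs.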

How the data were processed

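All 8 arrays sat on 1 slide of design 070154, which the authors read out with Agilent Feature Extraction 11.5.1.1 (protocol miRNA_1105_Oct12), per the file headers; per the labels, 100 ng of RNA with an integrity number over 8.0 was labelled with Cy3. The deposited intensity is the software's processed signal per spot, not normalized between arrays. The other deposited columns used were flags (0 or 1), raw and background intensity, and a total signal that the software computes for each miRNA.

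Outlier spots were dropped, spots averaged per probe, and each array divided by its 75th percentile over the 271 probes well above background on all 8 arrays. Probe values were floored at 2.57, the mean SD of the negative controls, and the probes of a miRNA summed before log2. A miRNA was above background when at least 1 probe was well above it on at least 0.5 of its spots. Where only 1 group had such an array, the fold is a bound: the other group was set, on each array, to its own level or, if higher, that of the dimmest miRNA above background there. Precision is limited by the 2 arrays per group.

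limma 3.58.1 in R 4.3.3 was fitted to all 8 arrays, 1 mean per group, with 4 residual and 2.18 prior degrees of freedom, two-sided, over the 242 miRNAs detected on every array of at least 1 of the 4 groups; 9 of them were not members. With 2 arrays against 2, exact permutation reaches no p below 0.333 and was not used. The replicate number in the labels is the row of the slide; deviations from the group means correlated between same-numbered arrays in all 6 pairs of groups (r 0.245 to 0.557, 0.302 for SHAM and UNX), so the numbers were taken to pair the arrays and the block was an alternative. Other alternatives were the scaling, background correction, floor, filter, arrays in the fit, variance model and leaving out each array. The background alternative used the median spot signal in place of the mean signal first planned.

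Members, the 17 lists and the naming rule were chosen with earlier results of these data known. The rule names, among others, the 10 members in each direction that had the smallest p and were above background on at least 1 array, the brightest members, and up to 4 members per list; other names are marked as chosen after values were seen or serve to complete a hairpin, cluster or strand pair. Positions are not given because the header's build (rn4) differs from that of the reference table.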

Additional observations from a re-analysis of the deposited data

How the results depend on the processing

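The count of 0 miRNAs past the adjusted threshold became 3 with array weights and was 0 under the other settings run, including each left-out array. The smallest adjusted p was 0.077 with the SHAM and UNX arrays alone and 0.162 with the replicate block, which moved the unadjusted counts to 2 higher and 28 lower. The median over members, -0.10, was 0.22 with the percentile over all probes, 0.22 with no scaling, -0.020 with quantile normalization, 0.00099 with normexp and quantile normalization, and -0.19 with the software's total signal. The cause was not tested. Unadjusted counts higher and lower were 1 and 4 without SHAM replicate 1, 2 and 4 without SHAM replicate 2, 1 and 6 without UNX replicate 2, 5 and 32 without either DOCA-EVs array, 21 and 38 with the SHAM and UNX arrays alone, 16 and 60 with array weights, 10 and 3 with normexp, and 9 and 42 with no filter, where 758 miRNAs were tested. Of 24 single miRNAs followed, only miR-451-5p reversed sign: 0.27 with the percentile over all probes, 0.28 with no scaling, 0.15 within slide row 1, and from -0.28 to 0.18 with 1 array left out, the latter without UNX replicate 2. Signal over background limits the 44 members above background on 1 to 3 of the 4 arrays and the 20 above it on none.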
